A study of Neurospora crassa with 54 samples.

Results

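The genes described here are those of Neurospora crassa chromosome V that lie near a chromosome end. A gene was taken when its midpoint was at most 200 kb from position 0 or from the last annotated base of the chromosome, 6435860 in assembly NC12. This gave 122 of the 10398 genes in the count table, 47 at the left end and 75 at the right end, out of 1694 genes on chromosome V. The left end held 42 protein-coding genes, 3 rRNA genes, 1 tRNA gene and 1 noncoding RNA gene. The right end held 71 protein-coding genes and 4 tRNA genes. The rule used position alone, but it was set with earlier results of these data known. The last gene inside the limit was NCU07813 on the left, at 199.63 kb, and NCU07209 on the right, at 199.68 kb, and the first outside were NCU07812 at 204.23 kb and NCU07210 at 202.13 kb.

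Poly(A) RNA of vegetative mycelium was sequenced in 4 strains with 3 libraries each. The strains were a wild type (WT), a deletion of the H2A.Z gene hH2Az (dhH2Az), a deletion of set-7 (dset7) and a strain with both deletions, called the double deletion below. All were grown alike, for 12 h at 30 °C under constant light in minimal medium with 2% glucose. The library names carry 1 strain code for each of the 4 groups and do not say whether replicates were separate cultures, so p-values measure the spread between these libraries. With 1 code per group, a deletion and any other difference between the strains cannot be told apart. Loss of a gene below thus names the strain label only. Values per library are given below in the order of replicate 1, 2 and 3, in CPM, read counts relative to the TMM-scaled library size.

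SET-7 is the catalytic subunit of the Neurospora Polycomb-type complex that methylates lysine 27 of histone H3, a mark of silent genes. In this fungus the mark covers large domains, many of them next to chromosome ends, where genes are mostly quiet in vegetative growth. H2A.Z is a variant of histone H2A that is placed mainly in nucleosomes near gene starts. The ends of a chromosome need not be alike. The left end of chromosome V (linkage group V) carries the rDNA, which forms the nucleolus. An rRNA gene starts at base 1 of the assembled sequence. Left-end distances thus run from position 0, and the distance to the telomere was not measured.

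Total counts per library ranged from 13581416 to 19720473. Replicates 1 and 2 of every strain carry the tag 920 in their names and replicate 3 another tag, a difference whose meaning the labels do not state. Within each strain replicate 3 stood apart, with a Pearson correlation of log2 CPM to its partners of 0.932 to 0.975, against 0.988 to 0.993 between replicates 1 and 2. hH2Az and set-7 were both lower in the strains labelled as lacking them, but not at 0. The mean of hH2Az was 72.5 CPM in WT, 89.7 CPM in dset7, 22.4 CPM in dhH2Az and 32.0 CPM in the double deletion, a log2 fold change against WT of -1.70 in dhH2Az and -1.18 in the double deletion (edgeR adjusted p of 0.00101 and 0.00801). The mean of set-7 was 8.61 CPM in WT, 9.89 CPM in dhH2Az, 3.37 CPM in dset7 and 3.82 CPM in the double deletion, a log2 fold change of -1.35 and -1.17 in the last 2 (edgeR adjusted p of 0.0456 and 0.00885). Where in these genes the remaining reads lie cannot be seen in gene counts, and absence of either protein below is taken from the labels. Of the 8372 genes with enough reads to be tested, 32 were at the left end and 59 at the right end. The other 15 left-end members had at most 75 reads over the 12 libraries, and 2 had none. The other 16 right-end members had at most 98 reads, and 5 had none. Of those without a read, NCU07195, NCU15135, NCU07183 and NCU17049 overlap another gene, so their lack of reads cannot be taken as silence. In all, 31.9% of left-end members and 21.3% of right-end members were not tested, against 19.5% of all genes. Reads were counted without regard to strand, so the 30 members that overlap another gene have uncertain counts, and they are marked as overlapping below.

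The right end held a block of genes that were near silent in WT and expressed without SET-7. In dset7 against WT, 8 of its 59 tested members rose and 0 fell (edgeR quasi-likelihood test, Benjamini-Hochberg adjusted p under 0.05, the threshold throughout). Over all tested genes 1.02% were called higher and 0.0119% lower, 1.03% in all. Within 200 kb of the ends of the other chromosomes, 34 of 531 tested genes rose and 0 fell. The share that rose was thus 6.4% there and 13.6% here, a difference that was not tested. All 8 right-end rises lay within 25.5 kb of the end, among 16 tested members in the outer 50 kb. Of the 43 tested members between 50 and 200 kb, edgeR called 0, with 1 at an unadjusted p under 0.05, and DESeq2 also called 0. Between 200 and 400 kb from the same end calls returned, with 7 of 38 tested genes higher and a median log2 fold change of 1.17. The fewest and most calls at the right end when 1 library was left out were 7 and 9, and the libraries tagged 920 alone gave 9 higher and 1 lower, beside 5.69% and 5.05% of all genes (10.7% in all). Of the 59 tested members 17 were under the expression limit of 0.595 CPM in at least 1 WT library and so could enter the test through another strain. Over all genes this held for 670 of 8372 tested. Every one of the 8 genes that rose, except NCU17053, was among these 17. Their place among the tested genes thus rests on the strains in which they are high.

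**Figure D1:**
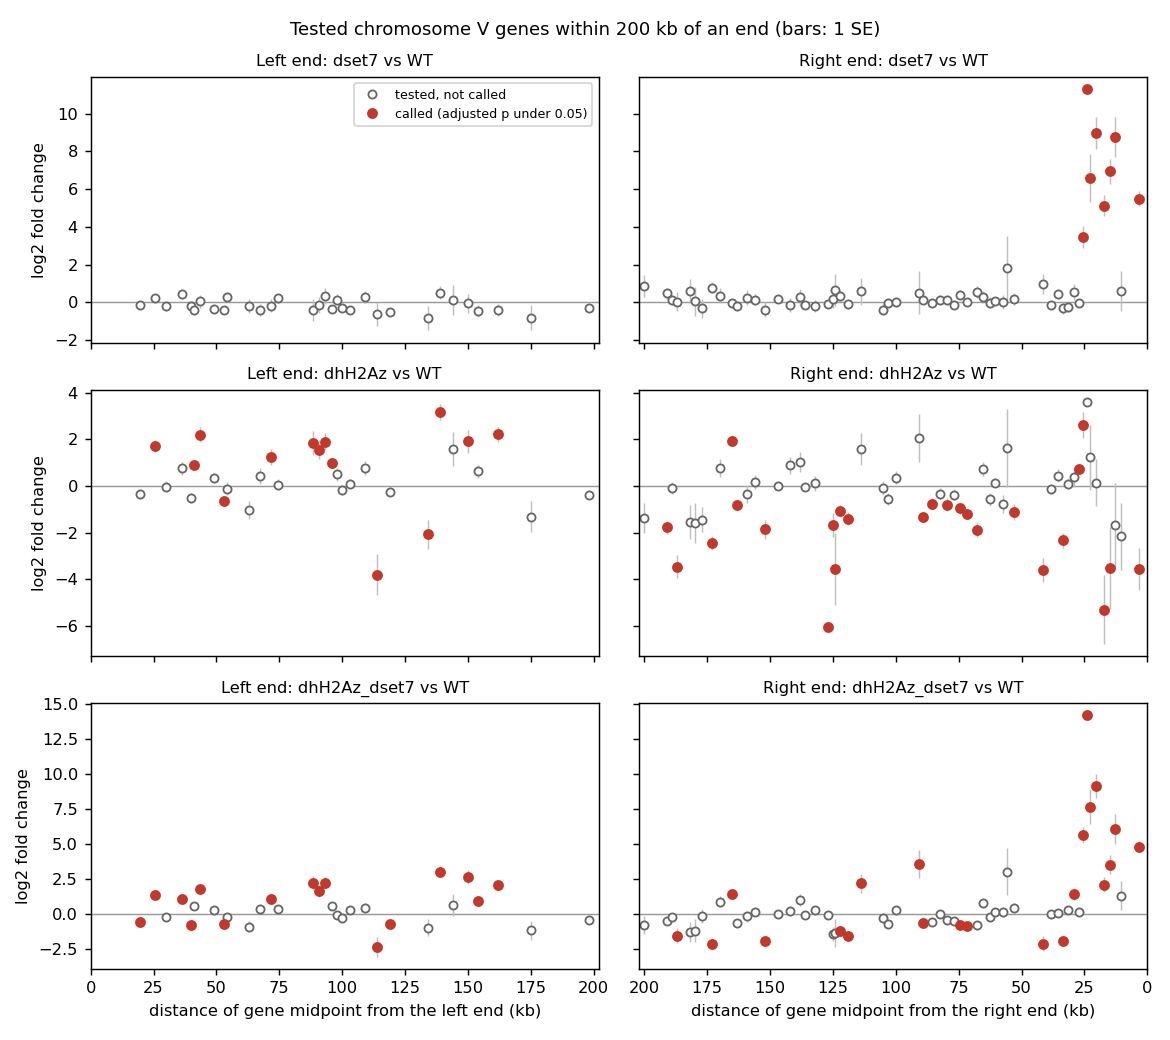
Log2 fold change (vertical axis) of the 32 tested left-end and 59 tested right-end genes against the distance of the gene midpoint from the end in kb (horizontal axis), for dset7, dhH2Az and the double deletion against WT. Filled points passed an edgeR adjusted p of 0.05, bars are 1 SE, and NCU07152 and NCU07186, which had no read in 1 strain, carry no bar; the 8 rises in dset7 all sit at the outer right end.

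Of the 8 genes, 7 are neighbours, from NCU17053 to NCU07147, and fill 13.6 kb (chromosome V from 6409845 to 6423410) with no other annotated gene between them. Their summed level was 3.0 to 5.82 CPM in the WT libraries, 261 to 426 CPM in the dset7 libraries and 334 to 554 CPM in the double deletion. In dhH2Az it was 4.95 and 5.26 CPM in replicates 2 and 1 and 25.0 CPM in replicate 3. The reference table gives none of the 7 a symbol or a function. A pair of comparisons that share no library gave the same genes. The 8 called in dset7 against WT were all among the 9 called in the double deletion against dhH2Az. That is 100% of the first list and 88.9% of the second. The overlap was not counted over all genes, and both comparisons come from the same fit.

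NCU17053 (6409845 to 6410837, minus strand) is the innermost of the block, 25.5 kb from the end. It had 1.94, 1.54 and 2.02 CPM in WT, 5.07, 4.54 and 23.9 CPM in dhH2Az, 20.6, 24.4 and 16.1 CPM in dset7, and 117, 75.1 and 87.1 CPM in the double deletion. WT was lowest and the double deletion highest, and only dhH2Az and dset7 overlapped, through dhH2Az replicate 3. The log2 fold change in dset7 was 3.47 (SE 0.560, edgeR adjusted p = 0.012), a call that was lost when any 1 WT library was left out, with an adjusted p of up to 0.0867. Alone among the 7 it also rose in dhH2Az, by 2.60 (SE 0.561, edgeR adjusted p = 0.00579), or by 1.38 without dhH2Az replicate 3. The double deletion exceeded dset7 by 2.19 (SE 0.508, edgeR adjusted p = 0.0095).

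NCU07152 (6411400 to 6412219, minus strand) had no read in any WT library and 5 reads in all of dhH2Az. Its level was 17.3, 20.3 and 18.3 CPM in dset7 and 181, 144 and 89.8 CPM in the double deletion. The 4 strains did not overlap. With a floor of 3 reads over the WT libraries it was at least 261-fold higher in dset7 and at least 1980-fold higher in the double deletion (edgeR adjusted p of 1.73e-05 and 2.18e-06). The double deletion stood 7.43-fold above dset7 (log2 2.89, edgeR adjusted p = 9e-05).

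NCU07151 (6412876 to 6413555, plus strand) had 1 read in WT and 4 in dhH2Az, against 140 in dset7 and 312 in the double deletion. The ratio of dset7 to WT was 122, with a 95% binomial interval of 21.5 to 4840 that covers counting error only. In CPM it had 3.79, 2.73 and 2.21 in dset7 and 6.18, 5.6 and 7.22 in the double deletion, without overlap. That difference, a log2 fold change of 1.12 (SE 0.397), did not pass the test (edgeR adjusted p = 0.0533).

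NCU07150 (6414593 to 6416401, plus strand) reached the highest CPM of the block in dset7. It had 0.675, 0 and 0.289 CPM in WT, 0, 0.306 and 0.719 CPM in dhH2Az, 151, 218 and 115 CPM in dset7, and 234, 183 and 120 CPM in the double deletion. The strains with SET-7 and those without did not overlap, while dset7 and the double deletion did. It rose by 8.98 (SE 0.858) on the log2 scale in dset7 over WT, and the difference was 0.15 (SE 0.549) in the double deletion against dset7, the second not passing the test (edgeR adjusted p of 0.00018 and 0.867).

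The 3 genes nearest the end in the block rose without SET-7 and reached a far lower level when H2A.Z was missing too. NCU07149 (6417640 to 6419476, plus strand) had 61.1, 51.0 and 52.9 CPM in dset7 and 5.15, 4.28 and 11.0 CPM in the double deletion. NCU07148 (6420073 to 6422165, minus strand) had 36.5, 42.9 and 20.3 CPM in dset7 and 2.36, 1.80 and 5.28 CPM in the double deletion. NCU07147 (6422489 to 6423410, plus strand) had 63.0, 66.9 and 36.3 CPM in dset7 and 7.88, 4.86 and 13.2 CPM in the double deletion. In each gene the groups did not overlap. The double deletion was lower than dset7 by log2 fold changes of -3.02 (SE 0.502), -3.41 (SE 0.465) and -2.68 (SE 0.538), with edgeR adjusted p of 0.00175, 0.000609 and 0.00486. This run of 3 genes fills 5.77 kb. NCU17053 and NCU07152, at the other side of the block, were higher in the double deletion than in dset7, so the order of the strains without SET-7 reversed within the 13.6 kb.

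In WT the same 3 genes were low but read. NCU07149 had 2.28, 2.16 and 0.404 CPM in WT, and its 62 WT reads stood against 2 in dhH2Az. This is a ratio of 45.1 (95% binomial interval 12.0 to 381) and a fall in the test (log2 -5.30, SE 1.46, edgeR adjusted p = 0.00162). The fitted log2 fold change was -8.18 in the libraries tagged 920 alone, which leave dhH2Az with no read. Its rise in the double deletion against WT was 2.10 (SE 0.553, edgeR adjusted p = 0.0155), or 1.09 in the libraries tagged 920 alone. NCU07148 had 11 reads in WT and 1 in dhH2Az, a fall with an edgeR adjusted p of 0.0376 that was lost without WT replicate 1 or 3 or any 1 dhH2Az library, with an adjusted p of up to 0.132. NCU07147 had 5 reads in WT, all in replicate 1, and 2 in dhH2Az, a difference that did not pass the test (edgeR adjusted p = 0.433). Its log2 fold change in the double deletion against WT, 6.06 (SE 1.06, edgeR adjusted p = 0.000393), was fitted as 10.22 without WT replicate 1, which leaves WT with no read.

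NCU07144 (6431522 to 6433447, minus strand), 3.38 kb from the end, was the outermost gene tested. It had 0.590, 0.693 and 0.173 CPM in WT, 0.0478, 0.0510 and 0 CPM in dhH2Az, 22.0, 21.7 and 20.5 CPM in dset7, and 12.3, 12.4 and 15.6 CPM in the double deletion. No 2 strains overlapped. It rose in dset7 by 5.50 (SE 0.410, edgeR adjusted p = 4.31e-05) and fell in dhH2Az, from 19 reads to 2, a ratio of 13.8 (95% binomial interval 3.34 to 122, edgeR adjusted p = 0.0023). The double deletion and dset7 differed by a log2 fold change of -0.67 (SE 0.320), which did not pass the test (edgeR adjusted p = 0.136).

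**Figure D2:**
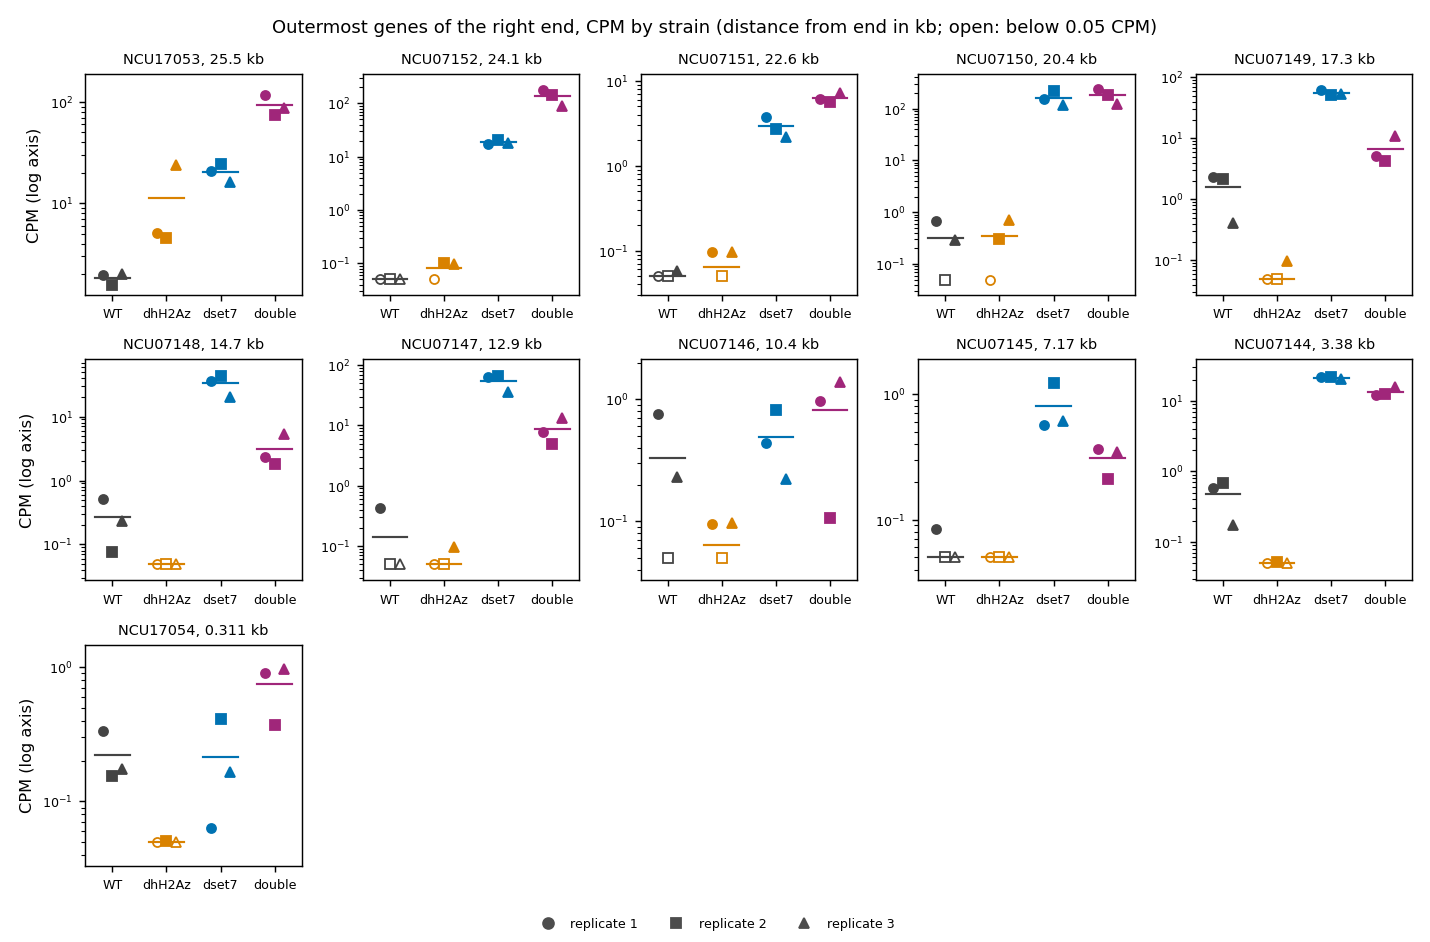
CPM on a log axis in each library (points, with a marker for each replicate number) and strain mean (line) for the annotated genes within 25.5 kb of the right end, ordered from the inside to the end, by strain. Open points are below 0.05 CPM and are drawn at 0.05, as are means below it; NCU17053 and NCU07152 are highest in the double deletion, and NCU07149, NCU07148 and NCU07147 are highest in dset7.

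The block is not continuous to the end. NCU07146 (6423834 to 6427067, plus strand), between the block and NCU07144, had 0.759, 0 and 0.231 CPM in WT and 0.442, 0.820 and 0.221 CPM in dset7, and its log2 fold change of 0.60 (SE 1.06) did not pass the test (edgeR adjusted p = 0.963). NCU07145 (6428125 to 6429262, plus strand) was not tested, with 1, 0, 38 and 15 reads in WT, dhH2Az, dset7 and the double deletion. The last annotated gene, NCU17054 (6435237 to 6435860, plus strand), was not tested either, with 9, 2, 10 and 36 reads in the same order. Per kb of exon, the genes under 1 CPM in the outer 50 kb were 12 of 20 in WT and also in dhH2Az, and 4 of 20 in dset7 and also in the double deletion. The same limit held 28.3% of all genes in WT and 26.1% in dset7. These are bulk cultures, so more hyphae with the RNA and more RNA per hypha cannot be told apart.

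Many right-end genes were lower in the strain without H2A.Z. In dhH2Az against WT, 22 of 59 tested members fell and 3 rose, beside 14.9% called lower and 16.2% called higher over all tested genes, 31.1% in all. The share of members that fell was 37.3%, and the median log2 fold change was -0.58, against 0.01 over all genes. Within 200 kb of the ends of the other 6 chromosomes, 141 of 531 tested genes fell and 68 rose, a share of 26.6% called lower. The difference between these shares was not tested. The falls were spread over the whole 200 kb, with 5 of 16 tested members called lower from 0 to 50 kb, 7 of 16 from 50 to 100 kb, 5 of 13 from 100 to 150 kb and 5 of 14 from 150 to 200 kb. Upper-quartile scaling moved the median of all genes to -0.12 and gave 24 lower and 2 higher. The libraries tagged 920 gave 25 lower and 11 higher, beside 26.6% and 28.6% of all genes (55.2% in all).

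The strongest falls among abundant genes were in NCU07159 and nit-10. NCU07159 (6393167 to 6395707, plus strand) had 293, 401 and 197 CPM in WT, 22.8, 18.8 and 32.1 CPM in dhH2Az, 316, 410 and 1030 CPM in dset7, and 57.4, 120 and 30.1 CPM in the double deletion. Both strains with H2A.Z lay above both strains without it. It fell 12.1-fold in dhH2Az against WT (log2 -3.60, SE 0.522, edgeR adjusted p = 0.000893) and 8.44-fold in the double deletion against dset7 (log2 -3.08, SE 0.520, edgeR adjusted p = 0.0021). Its dset7 mean rested on replicate 3, and in the libraries tagged 920 the second log2 fold change was -2.03. The fall in the double deletion against WT, -2.10 (SE 0.520, edgeR adjusted p = 0.0131), was lost without WT replicate 2 (edgeR adjusted p = 0.0527).

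The gene nit-10 (NCU07205, 6247448 to 6250397, plus strand), of nitrate utilization, had 822, 782 and 497 CPM in WT and 33.4, 42.8 and 115 CPM in dhH2Az. It had 525, 391 and 1230 CPM in dset7 and 215, 336 and 181 CPM in the double deletion. The dhH2Az libraries lay below all others, the double deletion between them and the rest. The fall in dhH2Az was 11.0-fold (log2 -3.46, SE 0.505, edgeR adjusted p = 0.000902). The falls of the double deletion against WT (-1.52, edgeR adjusted p = 0.0431) and against dset7 (-1.55, edgeR adjusted p = 0.041) were lost in 6 and 9 of 20 alternative fits, and the second was -0.91 without dset7 replicate 3.

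The gene his-6 (NCU07156, 6401312 to 6403405, plus strand, overlapping NCU07155), of histidine biosynthesis, had 997, 909 and 437 CPM in WT, 120, 117 and 227 CPM in dhH2Az, 748, 534 and 633 CPM in dset7, and 185, 243 and 199 CPM in the double deletion. The strains with and without H2A.Z did not overlap. It fell 5.06-fold in dhH2Az against WT (log2 -2.34, SE 0.330, edgeR adjusted p = 0.000529) and 3.05-fold in the double deletion against dset7 (log2 -1.61, SE 0.330, edgeR adjusted p = 0.00446). Its overlapping neighbour NCU07155 (6403231 to 6405076, minus strand) was at 283 ± 21.4 CPM in WT and 299 ± 62.7 CPM in dhH2Az (SD, n = 3 each), a log2 fold change of 0.08 (SE 0.227) that did not pass the test.

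NCU07200 (6261577 to 6263248, plus strand) had 148, 251 and 140 CPM in WT, 33.2, 28.1 and 36.3 CPM in dhH2Az, 195, 315 and 415 CPM in dset7, and 35.6, 50.7 and 37.5 CPM in the double deletion. Here too the strains with and without H2A.Z did not overlap. It fell by a log2 fold change of -2.47 (SE 0.297) in dhH2Az and of -2.90 (SE 0.297) in the double deletion against dset7, with edgeR adjusted p of 0.00019 and 8.79e-05. NCU07182 (6312556 to 6315790, minus strand, overlapping NCU07184 and NCU07183) was the most abundant gene of either end. It had 3260, 3790 and 2820 CPM in WT, 1740, 1710 and 1270 CPM in dhH2Az, 4290, 5430 and 2760 CPM in dset7, and 1620, 1320 and 1270 CPM in the double deletion. Its falls were 2.09-fold in dhH2Az (edgeR adjusted p = 0.0096) and 2.96-fold in the double deletion against dset7 (edgeR adjusted p = 0.00119), without overlap of the strains with and without H2A.Z.

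**Figure D3:**
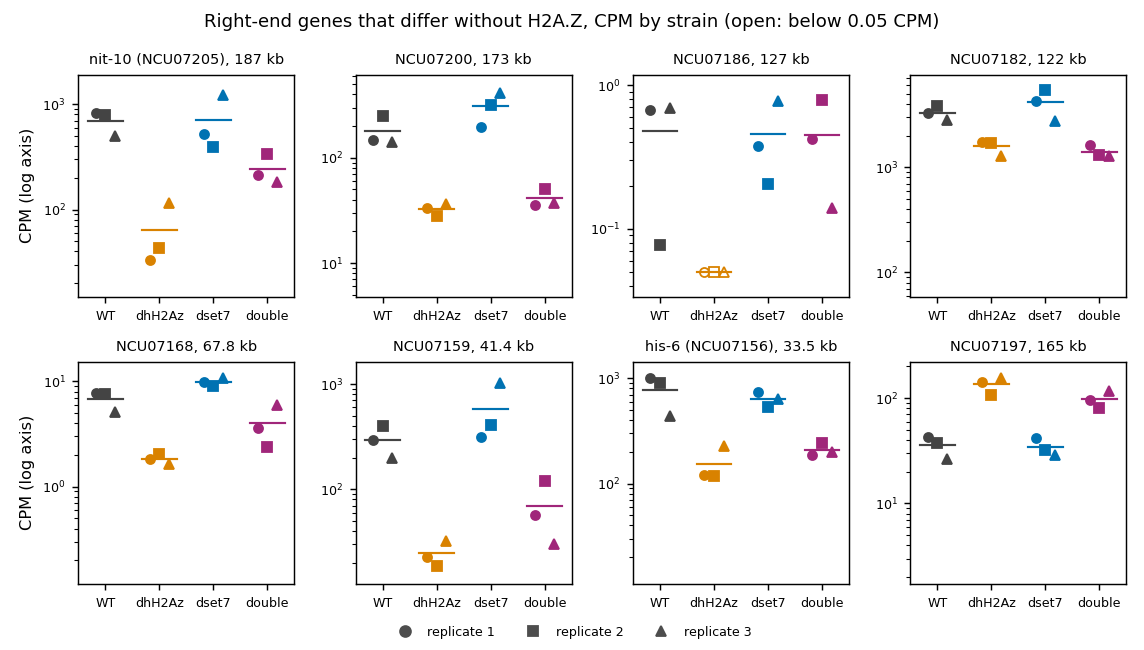
CPM on a log axis in each library (points, with a marker for each replicate number) and strain mean (line) for 8 right-end genes called in dhH2Az against WT, by strain. Open points are below 0.05 CPM and are drawn at 0.05, as are means below it; 7 genes are lower in dhH2Az than in WT, and NCU07197 is higher.

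At 2 places 3 or more neighbouring tested genes were all called lower. Runs of called neighbours, here and elsewhere in the text, were not counted over all genes. At this end 37.3% of tested members were called lower in dhH2Az against WT. A run of 5 tested genes, from NCU07186 to NCU07181, were lower in dhH2Az over 9.45 kb (6308115 to 6317560), with 1 untested gene among them. NCU07186 (6308115 to 6309716, minus strand) had 0.675, 0.077 and 0.693 CPM in WT and no read in dhH2Az, which makes it at least 10.2-fold lower there (edgeR adjusted p = 0.0129). The double deletion held 0.424, 0.793 and 0.139 CPM, a level that overlapped WT. NCU07181 (6316011 to 6317560, minus strand) had 14.8, 11.5 and 8.08 CPM in WT, 3.92, 3.62 and 5.32 CPM in dhH2Az, 13.1, 10.3 and 9.13 CPM in dset7, and 4.06, 3.91 and 3.40 CPM in the double deletion. The strains with and without H2A.Z did not overlap, and the log2 fold changes were -1.41 (SE 0.273) and -1.51 (SE 0.275) for H2A.Z loss with and without SET-7 (edgeR adjusted p of 0.00272 and 0.00212). Between them, NCU07185, NCU07184 and NCU07182 were the other members of the run, and NCU07184 overlaps both NCU07185 and NCU07182. NCU07184 had 19 reads in WT and 2 in dhH2Az (edgeR adjusted p = 0.0384).

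The second run held NCU07170, NCU07169 and NCU07168 over 9.47 kb (6360603 to 6370076), with 1 untested gene among them. NCU07168 (6366073 to 6370076, plus strand, overlapping NCU07167) had 7.67, 7.54 and 5.14 CPM in WT, 1.82, 2.04 and 1.63 CPM in dhH2Az, 9.80, 8.95 and 10.8 CPM in dset7, and 3.58, 2.38 and 5.97 CPM in the double deletion. The dhH2Az libraries were the lowest, and WT and the double deletion overlapped. It fell by -1.88 (SE 0.327, edgeR adjusted p = 0.00153) in dhH2Az and by -1.32 (SE 0.318, edgeR adjusted p = 0.00991) in the double deletion against dset7. NCU07170 (6360603 to 6362021, plus strand) fell by -0.97 (SE 0.253, edgeR adjusted p = 0.0144) and -1.21 (SE 0.253, edgeR adjusted p = 0.0047) in the same contrasts, the first being lost without dhH2Az replicate 1 or 2 (adjusted p of up to 0.063). The same 3 genes formed a run of falls in the double deletion against dset7.

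Of the 3 right-end rises in dhH2Az, NCU17053 is described above. NCU07197 (6269270 to 6271485, plus strand) had 42.4, 37.6 and 26.7 CPM in WT, 144, 108 and 157 CPM in dhH2Az, 41.5, 32.0 and 28.9 CPM in dset7, and 95.6, 81.2 and 118 CPM in the double deletion. Both strains without H2A.Z lay above both strains with it, and the rise was 3.84-fold in dhH2Az and 2.88-fold in the double deletion against dset7 (edgeR adjusted p of 0.000174 and 0.000893). NCU07153 (6407702 to 6409565, minus strand, overlapping NCU07154) borders the SET-7 responsive block on its inner side. It had 321, 404 and 294 CPM in WT, 681, 542 and 466 CPM in dhH2Az, 321, 387 and 287 CPM in dset7, and 440, 336 and 365 CPM in the double deletion. Its rise of 0.73 (SE 0.209, edgeR adjusted p = 0.0214) was lost with upper-quartile scaling, and also when WT replicate 1 or 3 or dhH2Az replicate 1 was left out (adjusted p of up to 0.0967). In dset7 its log2 fold change was -0.04 (SE 0.209), and the next gene outward, NCU17053, is the first of the block.

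H2A.Z loss was also measured where SET-7 was already missing. In the double deletion against dset7, 16 right-end members were lower and 4 higher of 59 tested, beside 15% and 14.7% of all genes, 29.7% in all. From the libraries tagged 920 the calls were 23 lower and 13 higher, beside 28.2% and 28.8% of all genes (57.0% in all). These libraries are separate from those of dhH2Az and WT. Of the 22 members lower in dhH2Az, 15 were also lower here, which is 68.2% of the first list and 93.8% of the second. A negative log2 fold change was found in 20 of the 22. This overlap was not counted over all genes, and both contrasts come from the same fit. The 4 higher members were NCU17053, NCU07152, NCU07197 and amt. The gene amt (NCU07176, 6344006 to 6346229, plus strand, overlapping NCU07175) had 3 reads in WT, all in replicate 3, 19 in dhH2Az, 5 in dset7 and 44 in the double deletion. The ratio of the double deletion to WT was 12.4 (95% binomial interval 3.98 to 62.5, edgeR adjusted p = 0.00576). The fitted log2 fold change of 3.59 was 6.94 without WT replicate 3 and 6.49 in the libraries tagged 920, both of which leave WT with no read.

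Against WT, the double deletion had 12 right-end members higher and 10 lower of 59 tested, beside 15.3% and 15.2% of all genes, 30.5% in all. The libraries tagged 920 gave 14 higher and 16 lower, beside 27.2% in each direction and 54.4% in all. In the outer 50 kb, 9 of 16 were higher and 2 lower, and between 50 and 200 kb 3 of 43 were higher and 8 lower. The 12 were the 8 genes that rose in dset7, amt, NCU07197, NCU07180 and NCU07154, the last 2 named after their values were seen. NCU07180 had 0.590, 0.539 and 0.75 CPM in WT and 1.70, 1.64 and 5.56 CPM in the double deletion (log2 2.21, SE 0.678, edgeR adjusted p = 0.0289). NCU07154, which overlaps NCU07153, had 9.28, 5.00 and 5.6 CPM in WT and 9.88, 12.6 and 30.9 CPM in the double deletion (log2 1.43, SE 0.418, edgeR adjusted p = 0.0253). In each, replicate 3 of the double deletion was the highest library. Without it the log2 fold changes were 1.39 and 0.76 and neither call held (edgeR adjusted p of 0.123 and 0.11). The call of NCU07180 was also lost when any 1 WT library was left out, and that of NCU07154 without WT replicate 2 or 3 and in the libraries tagged 920 (log2 0.67).

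SET-7 loss where H2A.Z was absent was read from the double deletion against dhH2Az. Here 9 of the 59 right-end members were higher and 0 lower, beside 1.12% and 0.323% of all genes, 1.45% in all. DESeq2 called 13. Without dhH2Az replicate 3 the count was 14 higher, and the libraries tagged 920 gave 19 higher and 4 lower, beside 12.6% and 16.8% of all genes (29.5% in all). For the genes of the block the reads in dhH2Az were so few that ratios carry wide intervals. NCU07147 stood at 412 against 2 reads, a ratio of 254 (95% binomial interval 69.8 to 2100), and NCU07144 at 663 against 2 reads, a ratio of 408 (95% binomial interval 113 to 3380). NCU07150 was 513-fold higher (log2 9.0, SE 0.756, edgeR adjusted p = 9.6e-05). The ninth gene, NCU07162 (6380906 to 6384609, minus strand, 53.1 kb from the end), was named after its values were seen. It had 6.33, 6.54 and 8.20 CPM in WT, 3.49, 3.42 and 2.73 CPM in dhH2Az, 7.27, 6.08 and 10.6 CPM in dset7, and 6.31, 8.09 and 14.8 CPM in the double deletion. Its dhH2Az libraries lay below all others, with a fall of -1.13 (SE 0.336, edgeR adjusted p = 0.0254) against WT and a rise of 1.59 (SE 0.333, edgeR adjusted p = 0.04) from dhH2Az to the double deletion. The fall was lost without WT replicate 2 or 3 or any 1 dhH2Az library (adjusted p of up to 0.074). The rise was lost without any 1 WT library, dhH2Az replicate 1 or 2, dset7 replicate 1 or double deletion replicate 2 (adjusted p of up to 0.149), and was 1.05 in the libraries tagged 920. Of the other 8 genes, NCU17053 lost its call without dhH2Az replicate 1 or double deletion replicate 1 (edgeR adjusted p of 0.0638 and 0.054).

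Whether either deletion acted differently with the other gene missing was tested as an interaction in the same fit. edgeR called 0 of 59 right-end and 0 of 32 left-end members, beside 0.179% of all genes, and DESeq2 called 0 at both ends. At an unadjusted p under 0.05 there were 6 on the right and 0 on the left. In the libraries tagged 920 alone, which spread less, edgeR called 9 right-end and 7 left-end members, beside 25.8% of all genes. On the right 7 were above 0 and 2 below, and on the left 5 and 2. The right-end values, on the log2 scale and seen before they were chosen for print, were 4.6 in NCU07149, 3.64 in nit-10, 2.67 in NCU07144, 2.01 in NCU07159, 1.45 in NCU07206, 1.4 in his-6 and 0.98 in NCU07162, and -1.32 in NCU07157 and -4.48 in NCU07163. Their edgeR adjusted p ran from 7.04e-06 in nit-10 to 0.0374 in NCU07162. The value of NCU07149 rests on dhH2Az libraries with no read of that gene, so its size is not well measured.

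Taken over all members, the summed level of the right end was 8560, 9137 and 6536 CPM in WT, 4659, 4412 and 4238 CPM in dhH2Az, 9238, 10310 and 8808 CPM in dset7, and 5322, 4900 and 4368 CPM in the double deletion. Strains with and without H2A.Z did not overlap. NCU07182 alone made up 27% to 52.6% of these sums. At the left end the sums were 4051, 4054 and 2987 CPM in WT, 2525, 2402 and 4168 CPM in dhH2Az, 2545, 2394 and 3181 CPM in dset7, and 2629, 2770 and 3184 CPM in the double deletion, and all 4 strains overlapped. NCU08847 alone made up 8.86% to 47.2% of them.

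No left-end gene was called after SET-7 loss. In dset7 against WT edgeR called 0 of 32 tested members, with 1 at an unadjusted p under 0.05, and DESeq2 called 0, beside the 1.03% called over all genes. The median log2 fold change was -0.21, against -0.02 over all genes. In the double deletion against dhH2Az edgeR called 0 as well, with 0 at an unadjusted p under 0.05, and DESeq2 called 0, beside 1.45% of all genes. With so few calls over all genes, 0 of 32 does not set the left end apart from the whole genome. Within 200 kb of the ends of the other chromosomes, edgeR called 34 of 531 tested genes (6.4%) in dset7 against WT. In the double deletion against dhH2Az it called 62 of 531 there (11.7%). The difference between those ends and the left end was not tested. Between 200 and 400 kb from the left end edgeR called 0 of 36 in dset7 against WT, with 4 at an unadjusted p under 0.05 and 0 by DESeq2. The libraries tagged 920 gave 5 lower and 0 higher in dset7 against WT, beside 5.05% and 5.69% of all genes. They gave 3 in each direction in the double deletion against dhH2Az, beside 12.6% of all genes higher and 16.8% lower. A difference in SET-7 response between the left and the right end was not tested.

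The outermost 3 annotated genes of the left end are rRNA genes, which poly(A) libraries hardly sample. NCU15610 (1 to 1577) had 13 reads over the 12 libraries, NCU15611 (1769 to 1922) had 0 and NCU15612 (2045 to 5250) had 27, and none was tested. Per kb of exon, 6 of the 14 genes in the outer 50 kb were under 1 CPM in each of the 4 strains. NCU08882 (18907 to 20499, plus strand), 19.7 kb from position 0, was the first gene that was tested and was abundant. It had 558, 600 and 548 CPM in WT, 448, 403 and 484 CPM in dhH2Az, 570, 548 and 432 CPM in dset7, and 482, 354 and 315 CPM in the double deletion. WT lay above the double deletion, with a log2 difference of -0.57 (SE 0.197, edgeR adjusted p = 0.0469), a call that was lost in 10 of 20 alternatives, with an adjusted p of up to 0.142.

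**Figure D4:**
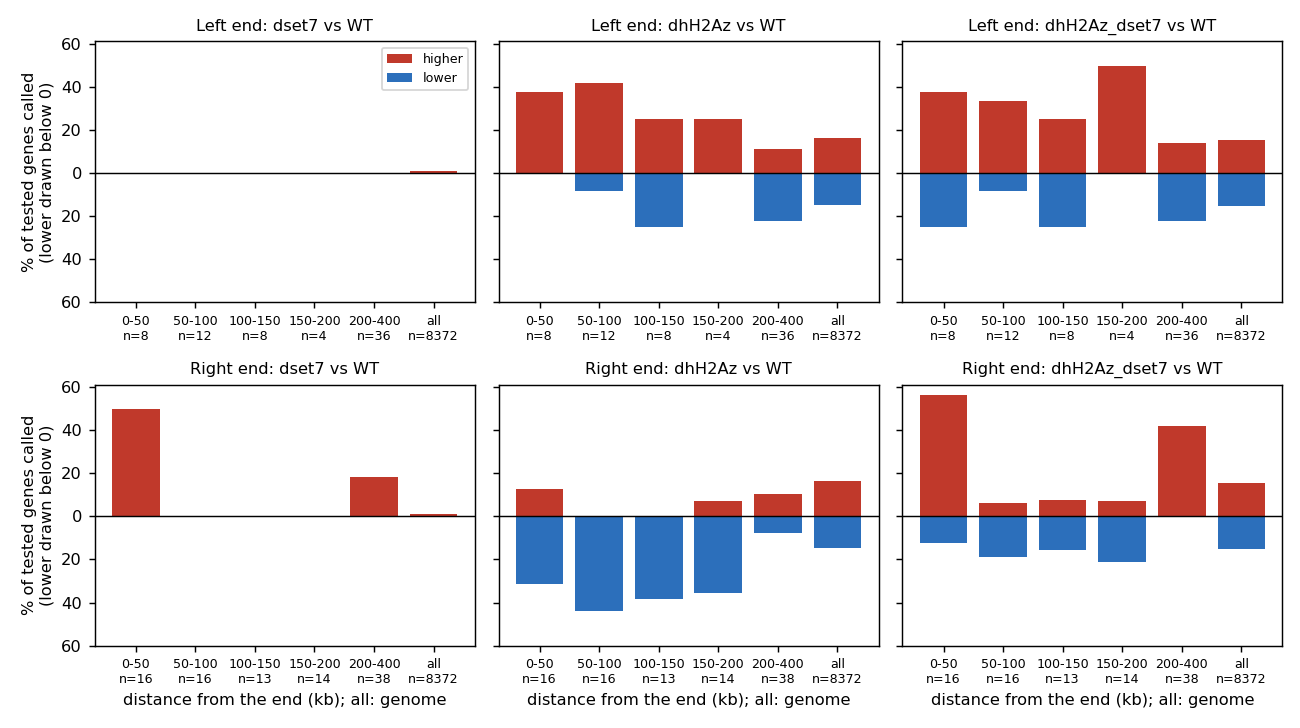
Share of tested genes called higher (upward bars) or lower (bars drawn below 0) in percent, by distance from the left or right end in kb, for dset7, dhH2Az and the double deletion against WT, with all genes as the last bar and the number tested under each bar. In dset7 the 0 to 50 kb and 200 to 400 kb bars of the right end stand up, at 50% and 18.4%, and every distance bar of the left end is at 0.

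Left-end genes called in the strain without H2A.Z were mainly higher. In dhH2Az against WT 11 of 32 tested members rose and 3 fell, 34.4% and 9.38%, beside 16.2% and 14.9% of all genes, with a median log2 fold change of 0.46. The rises were fewer without WT replicate 1, where 8 rose and 1 fell, and without WT replicate 2, where 7 rose and 1 fell. The libraries tagged 920 gave 17 higher and 7 lower, beside 28.6% and 26.6% of all genes. Upper-quartile scaling gave 11 higher and 5 lower. The next 200 kb inward had 4 higher and 8 lower of 36. All 11 rises were called again in the double deletion against dset7, from libraries not used in the first contrast but in the same fit. That is 100% of the first list and 78.6% of the second, an overlap that was not counted over all genes. In the double deletion against dset7, 14 left-end members were higher and 0 lower, beside 14.7% and 15% of all genes. Under upper-quartile scaling, which moves the median of all genes to -0.13, 12 were higher and 2 lower. With only the libraries tagged 920, 16 were higher and 5 lower, beside 28.8% and 28.2% of all genes. A direction opposite to that of the right end thus held for most calls, and the difference between the ends was not tested.

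NCU08851 (138347 to 139697, minus strand) had the largest called rise of the left end in dhH2Az against WT. It had 0.928, 1.46 and 1.56 CPM in WT, 14.1, 12.6 and 9.30 CPM in dhH2Az, 1.33, 1.71 and 2.60 CPM in dset7, and 8.37, 10 and 13.5 CPM in the double deletion. Strains with and without H2A.Z did not overlap. The rise was 9.0-fold in dhH2Az (log2 3.17, SE 0.333, edgeR adjusted p = 7.37e-05) and 5.63-fold in the double deletion against dset7 (log2 2.49, SE 0.321, edgeR adjusted p = 0.000325). Further inward, mus-18 (NCU08850, 148101 to 151779, minus strand) encodes the UV damage endonuclease of a DNA repair pathway. It had 7.42, 6.54 and 14.0 CPM in WT, 51.7, 38.3 and 15.3 CPM in dhH2Az, 8.09, 6.83 and 12.1 CPM in dset7, and 80.8, 68.2 and 24.7 CPM in the double deletion. The strains with and without H2A.Z were apart, but by little in replicate 3, where 14.0 CPM in WT stood beside 15.3 CPM in dhH2Az. The rise in dhH2Az was 3.74-fold (log2 1.90, SE 0.506, edgeR adjusted p = 0.0171), lost without WT replicate 1 or 2 or dhH2Az replicate 1 (adjusted p of up to 0.0745), and in the double deletion against dset7 it was 6.43-fold (log2 2.68, SE 0.504, edgeR adjusted p = 0.00333).

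NCU08848 (160421 to 163953, plus strand) had 44.7, 43.7 and 24.5 CPM in WT, 134, 129 and 257 CPM in dhH2Az, 28.8, 22.9 and 33.7 CPM in dset7, and 132, 129 and 219 CPM in the double deletion. Strains with and without H2A.Z did not overlap, and the rise was 4.61-fold with SET-7 present and 5.62-fold without it (edgeR adjusted p of 0.000769 and 0.000467). Together with NCU16914 and mus-18 it made a run of rises over 15.9 kb (148101 to 163953) in both contrasts that have the double deletion against a strain with H2A.Z, with 1 untested gene inside. NCU16914 itself was not called in dhH2Az against WT.

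A second run, NCU08864 to NCU08861, filled 9.64 kb (87536 to 97174), and all 4 of its genes were higher in dhH2Az and in the double deletion against dset7. NCU08864 (87536 to 89514, minus strand) had 0.928, 0.616 and 0.173 CPM in WT, 2.10, 2.04 and 1.77 CPM in dhH2Az, 0.253, 0.547 and 0.442 CPM in dset7, and 2.30, 2.01 and 3.68 CPM in the double deletion. NCU08862 (92097 to 94077, minus strand) had 0.675, 0.462 and 0.346 CPM in WT, 2.01, 1.74 and 1.73 CPM in dhH2Az, 0.695, 0.478 and 0.664 CPM in dset7, and 1.76, 2.27 and 2.99 CPM in the double deletion. Both are low genes in which strains with and without H2A.Z did not overlap. They rose by 1.83 (SE 0.506) and 1.89 (SE 0.376) on the log2 scale in dhH2Az, with edgeR adjusted p of 0.0175 and 0.00272, the first being lost without WT replicate 2 (edgeR adjusted p = 0.0505). The gene at the inner side of the run is far more abundant. NCU08861 (94489 to 97174, minus strand) had 160, 172 and 223 CPM in WT, 318, 286 and 482 CPM in dhH2Az, 145, 149 and 138 CPM in dset7, and 291, 250 and 292 CPM in the double deletion. Its strains with and without H2A.Z did not overlap either, with a rise of 1.95-fold in dhH2Az (edgeR adjusted p = 0.00572) and 1.93-fold in the double deletion against dset7 (edgeR adjusted p = 0.00678).

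Nearer the end, NCU10291 (42286 to 44857, minus strand) had 8.52, 7.08 and 4.27 CPM in WT, 27.9, 27.6 and 35.2 CPM in dhH2Az, 6.89, 5.6 and 7.96 CPM in dset7, and 18.3, 17.0 and 34.2 CPM in the double deletion. Strains with and without H2A.Z did not overlap, and the rise was 4.57-fold in dhH2Az (log2 2.19, SE 0.319, edgeR adjusted p = 0.000584) and 3.39-fold in the double deletion against dset7 (edgeR adjusted p = 0.00216). NCU10292 (40435 to 41983, minus strand, overlapping NCU08877) rose by 0.88 (SE 0.224, edgeR adjusted p = 0.0122) in dhH2Az, lost without WT replicate 1 or 2 (adjusted p of up to 0.0542), and by 0.99 (SE 0.224, edgeR adjusted p = 0.00692) in the double deletion against dset7. Its overlapping partner on the other strand, NCU08877 (39112 to 40780), was not called in dhH2Az against WT (log2 -0.525, edgeR adjusted p = 0.102). In the double deletion against WT, NCU10292 was not called (log2 0.563, edgeR adjusted p = 0.078). There NCU08877 was lower, at 409, 495 and 315 CPM in WT and 266, 246 and 215 CPM in the double deletion. That fall of -0.75 (SE 0.228, edgeR adjusted p = 0.0286) was lost without WT replicate 1 or 2 or double deletion replicate 2 or 3 (adjusted p of up to 0.123). With NCU08875 (46676 to 51750, plus strand), these minus-strand genes formed a run of 3 over 11.3 kb in the double deletion against dset7, where NCU08875 rose by 0.67 (SE 0.199, edgeR adjusted p = 0.0245), lost under upper-quartile scaling and without dset7 replicate 1 or 2 or double deletion replicate 2 (adjusted p of up to 0.0984).

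**Figure D5:**
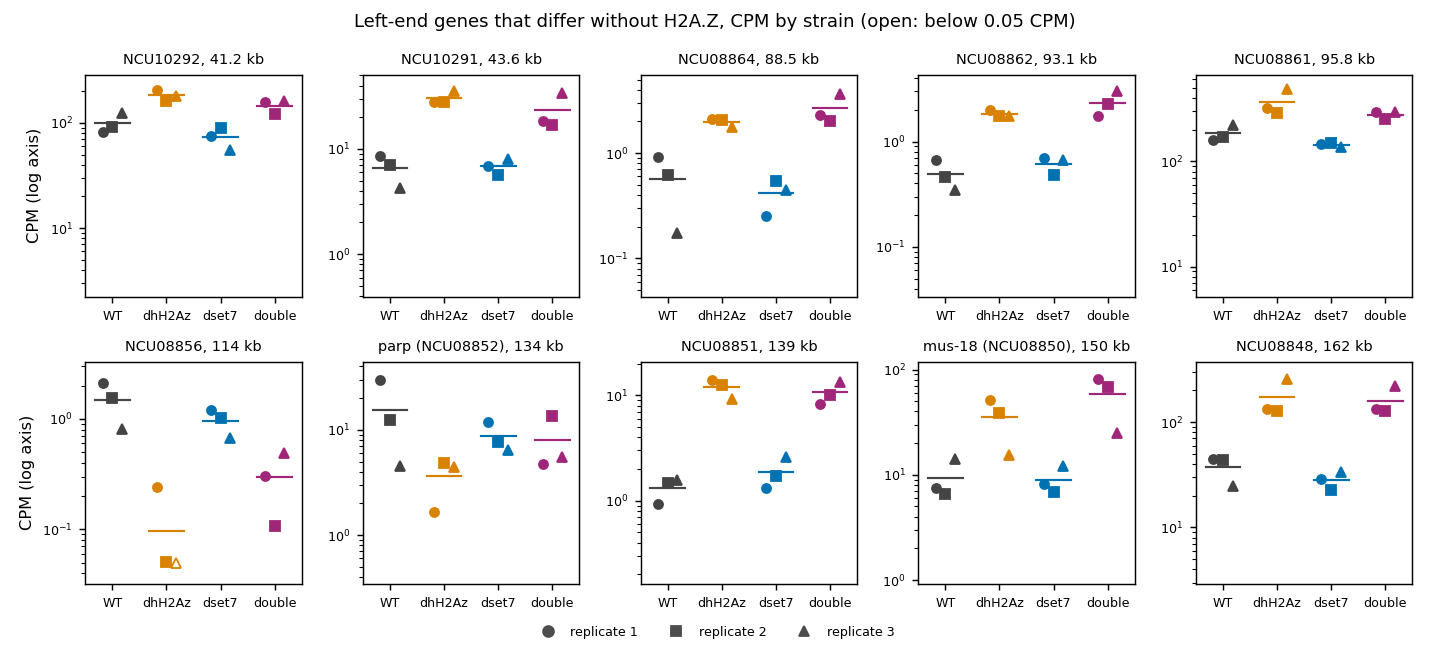
CPM on a log axis in each library (points, with a marker for each replicate number) and strain mean (line) for 10 left-end genes called in dhH2Az against WT, by strain. Open points are below 0.05 CPM and are drawn at 0.05, as are means below it; 8 genes are higher in dhH2Az than in WT, and NCU08856 and parp are lower.

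The 3 left-end falls in dhH2Az were NCU08856, parp and NCU08874, the last named after its values were seen. NCU08856 (112883 to 115108, plus strand) had 2.11, 1.54 and 0.808 CPM in WT, 0.239, 0.0510 and 0 CPM in dhH2Az, 1.2, 1.02 and 0.664 CPM in dset7, and 0.303, 0.106 and 0.486 CPM in the double deletion. Strains with and without H2A.Z did not overlap, and it fell by -3.81 (SE 0.876, edgeR adjusted p = 0.00367) in dhH2Az and by -2.31 (SE 0.717, edgeR adjusted p = 0.0274) in the double deletion against WT, the second lost without WT replicate 1 or 2 or double deletion replicate 1 or 2 (adjusted p of up to 0.096). The gene parp (NCU08852, 132681 to 135523, minus strand), of a poly(ADP-ribose) polymerase, had 29.7, 12.4 and 4.5 CPM in WT and 1.67, 4.85 and 4.46 CPM in dhH2Az. WT and dhH2Az overlapped, and the fall of -2.08 (SE 0.635, edgeR adjusted p = 0.0318) was lost without WT replicate 1 or 2 or any 1 dhH2Az library (adjusted p of up to 0.174), and was -1.20 without WT replicate 1. NCU08874, which overlaps NCU08873, fell by -0.66 (SE 0.216, edgeR adjusted p = 0.0378), a call lost without WT replicate 1 or 2, dhH2Az replicate 1 or 2 or double deletion replicate 2 and with no filter beyond 1 read (adjusted p of up to 0.136).

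Against WT the double deletion had 11 left-end members higher and 5 lower of 32 tested, beside 15.3% and 15.2% of all genes. Without WT replicate 1, without WT replicate 2 and without double deletion replicate 2 the counts were 9, 9 and 10, all of them rises. The libraries tagged 920 gave 16 higher and 9 lower, beside 27.2% of all genes in each direction. The most abundant left-end gene, NCU08847 (172745 to 176668, plus strand), had 1910, 1840 and 860 CPM in WT, 224, 299 and 1310 CPM in dhH2Az, 642, 515 and 1440 CPM in dset7, and 336, 669 and 1070 CPM in the double deletion. Replicate 3 was lowest in WT and highest in the other 3 strains, and no contrast of this gene passed the test in all 12 libraries (edgeR adjusted p of 0.903 in dset7 and 0.156 in dhH2Az against WT). In the libraries tagged 920 alone it fell by -1.68 in dset7 (edgeR adjusted p = 0.00307).

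Of the 10 members with a gene symbol, 5 have not been described. The gene arp2 (NCU07171, 6358108 to 6360167, minus strand), of the actin-related protein of the Arp2/3 complex, was at 330 ± 46.9 CPM (SD, n = 3) in WT and 303 ± 71.4 CPM in dset7, and at 254 ± 25.8 CPM in dhH2Az and 238 ± 53.9 CPM in the double deletion. The gene rib-4 (NCU07188, 6299107 to 6301065, plus strand), of riboflavin synthesis, was at 75.0 ± 4.57, 67.5 ± 12.6, 73.0 ± 8.68 and 73.8 ± 7.84 CPM in the same order. The gene gh6-3 (NCU07190, 6293016 to 6295011, minus strand, overlapping NCU15135), of a glycoside hydrolase of family 6, was at 7.66 ± 1.90, 7.02 ± 1.77, 14.1 ± 7.39 and 9.0 ± 0.720 CPM. None of these 3 passed the edgeR test in any of the 6 contrasts. The kinase gene stk-8 (NCU07172, 6354743 to 6358025, minus strand, overlapping NCU07173) and ro-12 (NCU07196, 6271879 to 6274690, plus strand, overlapping NCU07195), one of the ropy genes of hyphal growth, were lower in dhH2Az by -0.81 (SE 0.271, edgeR adjusted p = 0.041) and -0.82 (SE 0.264, edgeR adjusted p = 0.0343). Both calls were lost in 8 and 6 of 20 alternatives, with adjusted p of up to 0.148 and 0.133. In all, 21 of the 32 tested left-end members and 32 of the 59 tested right-end members were called in at least 1 of the 5 pairwise contrasts or the interaction, beside 43.9% of all tested genes.

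Genes of asexual sporulation were listed as signs of another state of the culture (eas, con-6, con-8, con-10 and fl). In dhH2Az against WT edgeR called 3 of the 5, in both directions, beside 31.1% of all genes: con-8 rose by 3.60 on the log2 scale and eas and fl fell by 6.38 and 1.26. In the double deletion con-8 and con-6 rose against WT, 2 of 5 beside 30.5%, and con-8 rose against dset7, 1 of 5 beside 29.7%. None was called in the other 3 contrasts, and con-10 was called in no contrast. Their summed level was 86.0 to 134 CPM in WT, 150 to 809 CPM in dhH2Az, 58.0 to 203 CPM in dset7 and 359 to 1020 CPM in the double deletion. Their part in the changes of the chromosome V genes was not tested. Of 6 listed chromatin genes, among them hH2Az and set-7 themselves, 1 fell in dset7 against WT, beside 1.03% of all genes called. It was set-7, and calls of a deleted gene follow from the strain labels. In dhH2Az 3 fell, beside 31.1%, and in the double deletion 4 fell, hH2Az and set-7 among them, and 1 rose, beside 30.5%. The falls in dhH2Az were hH2Az, cac-3 and eed (NCU05300), the last 2 being genes of the SET-7 complex. For cac-3 the log2 fold change was -0.64 (edgeR adjusted p = 0.0104). The mean of eed was 3.06 CPM in WT, 0.342 CPM in dhH2Az, 2.65 CPM in dset7 and 0.489 CPM in the double deletion. Its log2 fold change in dhH2Az was -3.13 (edgeR adjusted p = 0.00014). The part of eed or cac-3 in the changes described here was not tested. Of the 6 genes, 1 (set-7) fell in the double deletion against dhH2Az and 2 (hH2Az and eed) against dset7, beside 1.45% and 29.7% of all genes. In the interaction 0 were called, beside 0.179%.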

How the data were processed

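The authors deposited 1 table of whole-number read counts per gene for the 12 RNA-seq libraries. Per the file headers, the counts come from featureCounts 1.6.2 run over NC12 exons with no option for strand or for multiply aligned reads. No normalization is recorded. Per the submitters' processing notes, Trim Galore, FastQC, BWA 0.7.15, SAMtools 1.3.1, HOMER 4.8 and deepTools 3.3.1 were used in the series, with no role given. The 42 chromatin samples were not analysed here. Of 10398 genes, 10397 matched the RefSeq table of the same assembly by position. That table holds no product names, so a planned sorting of members by product was replaced by gene type.

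Genes were filtered with filterByExpr (minimum count 10), which left 8372. TMM gave the scaling factors (edgeR 4.0.16 in R 4.3.3). Genes were tested 2-sided by quasi-likelihood in edgeR (glmQLFTest), with 1 model of the 12 libraries that has a term for each strain, adjusted over all tested genes by Benjamini-Hochberg at 0.05. Contrasts share strains, so calls in contrasts with a common strain are not independent. Contrasts with no common strain still share the fit and its spread per gene. The interaction is the effect of SET-7 loss in dhH2Az less its effect in WT. CPM is the count over the TMM-scaled library size, and SE is a Wald error of the fit. A group with no read was given a floor of 3 counts over the group. With 1 to 3 reads in a group a ratio with a 95% exact binomial interval of pooled reads is given. Intervals and floors cover counting error only. The procedure was run on simulated counts with a common dispersion, equal strain means except for changed genes in dset7, and no difference between tags. That run does not cover the way replicate 3 stands apart in these data. Deviations of same-numbered libraries from strain means correlated above 0.1 in all 3 pairs for WT with dset7 (0.167 to 0.431) and for dhH2Az with dset7 (0.147 to 0.266), but not for the other 4 pairs of strains. Of 36 pairs with different numbers 12 also exceeded 0.1, so correlations above 0.1 do not establish that the numbers pair libraries.

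Members and gene lists were chosen with earlier results of these data known. Named genes are those with a symbol, the 3 outermost and the 3 most abundant of each end, the 5 largest rises and 2 largest falls among calls of each pairwise contrast, members called in the interaction, and the ends of runs of 3 or more called neighbours. Others are marked in the text. The alternatives were each library left out, only the libraries tagged 920, a block on the replicate number or on the tag, a distance of 100 kb, a Wald test in DESeq2 1.42.0, its size factors in edgeR, upper-quartile scaling, and filters of 1 read or of a mean of 5 CPM.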

Additional observations from a re-analysis of the deposited data

How the results depend on the processing

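Across 20 alternative fits, 74 of the 93 called results of named genes kept their call in every fit that tested the gene, 19 lost it in at least 1 and 0 reversed. The gene was tested in 18 or 19 of the fits for 14 results and in 20 for the rest. Counts of members called, in the order dset7, dhH2Az and double deletion against WT, then double deletion against dhH2Az and against dset7, then interaction, were 0, 14, 16, 0, 14 and 0 at the left end and 8, 25, 22, 9, 20 and 0 at the right end. With only the libraries tagged 920 the left counts were 5, 24, 25, 6, 21 and 7 and the right counts 10, 36, 30, 23, 36 and 9. The common dispersion was 0.0178 in those 8 libraries and 0.102 in all 12, and what the tag stands for was not tested. Leaving out 1 library gave ranges of 0 to 0, 8 to 17, 9 to 17, 0 to 0, 11 to 15 and 0 to 0 on the left, and 7 to 9, 17 to 26, 16 to 26, 7 to 14, 17 to 26 and 0 to 0 on the right. With 1 library out, that strain keeps a pair of libraries, and the fit pools the spread over strains. Within 100 kb, where fewer members lie, the counts were 9 for dhH2Az against WT, 10 and 9 for the double deletion against WT and dset7 on the left, and 14 for dhH2Az against WT and 12 for the double deletion against dset7 on the right.

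The summed level of the right end in dhH2Az, 4436 CPM, was 4161 with upper-quartile scaling and 4768 with library totals only, and in the double deletion, 4863 CPM, it was 5346 with library totals only. The cause of these shifts was not tested. Leaving out 1 library gave 4325 to 4535 in dhH2Az and 4634 to 5111 in the double deletion.

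Of the 5 pairwise contrasts, only dset7 against WT had all its same-numbered correlations above 0.1, and there a block changed no call of a named gene. Over all 18 same-numbered pairs deviations from strain means correlated between -0.350 and 0.431, above 0.1 in 7. Of 36 pairs with different numbers 12 were above 0.1, so pairing by number was not established in any contrast. A block on replicate number gave 0, 15, 18, 0, 17 and 0 on the left and 8, 24, 25, 8, 22 and 0 on the right. Under it edgeR no longer called NCU07148, parp and NCU08874 in dhH2Az against WT (adjusted p of 0.0604, 0.0688 and 0.0518), nit-10 in the double deletion against dset7 (0.0726) and NCU07162 in the double deletion against dhH2Az (0.0551). Depth limits the silent genes, since WT and dhH2Az hold 0 to 62 reads each over 3 libraries for NCU07144 and the 6 block genes other than NCU17053.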
